A study of Mus musculus with 18 samples.

Results

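Astrocytes keep glutamate, GABA and potassium low and pH steady around neurons. Here 8 genes of that work were followed in mouse medulloblastomas: Slc1a2, Slc1a3, Slc6a11, Slc4a4, Slc7a10, Slc7a11, Slc38a3 and Glul. They were chosen by name, with earlier results of these data known, as 7 membrane carriers and 1 enzyme of glial amino acid and ion handling. All 8 of them were found among the 19938 genes that the arrays measured. Each gene was read from the probe set with its highest mean over all 18 arrays. Only Glul had more than 1 probe set. No filter on low values was applied, so no member was lost to one.

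Medulloblastoma is a tumour of the cerebellum. The mouse tumours of this series carry changes in Ptch or Smo, the receptor and the signal transducer of the Hedgehog pathway, and the series set out to profile 3 tumour subtypes of the Ptch model. RNA from 18 tumours was hybridised to Affymetrix whole-transcript arrays, 1 array per tumour. The Ptch tumours fell into the subtypes NG-Ptch (4 tumours, replicates 1, 2, 4 and 5), GFD-Ptch (2 tumours) and GFI-Ptch (4 tumours). The Smo tumours were labelled NG-Smo;Atoh1-CreER (4 tumours, called NG-Smo below) and GFD-Smo;GFAP-cre (4 tumours, called GFD-Smo below). The letters NG, GFD and GFI are not spelled out in the labels, which also give neither the Ptch and Smo alleles nor the age of the animals. Atoh1-CreER is a Cre recombinase that tamoxifen switches on in cells using the Atoh1 control region, which is active in granule neuron progenitors, and GFAP-cre is driven by the control region of GFAP, a gene of astrocytes and of neural stem cells. Each Smo subtype was made with its own Cre driver, so subtype and driver cannot be told apart in the Smo tumours. GFI-Ptch replicate 4 was a transplanted tumour, a progressed derivative of another tumour grown in a female mouse of the NSG strain, which lacks most of its immune system. The labels do not say that the tumours of a group came from separate animals, so the p-values below measure only the spread between these arrays.

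All values are log2 levels as deposited, and the array medians lay between 7.736 and 7.868. Markers of granule neuron progenitors, the cells from which Hedgehog medulloblastoma is known to arise, were high in every tumour, with a mean log2 level over 12 genes between 11.3 and 11.79. Arrays of a group correlated at 0.995 to 0.998 in GFD-Smo and at only 0.97 to 0.992 in GFI-Ptch, where the transplanted tumour stood apart and also had a mean of 9.86 over 8 skeletal muscle genes, against 7 to 7.86 on the other 17 arrays. Among 13 tumours labelled female or male, 3 did not match their label by 3 Y-linked genes, the transplanted tumour among them. Both GFD-Ptch tumours had Y-linked RNA and no NG-Ptch tumour did, so sex and subtype cannot be told apart between these groups.

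In the brain, glutamate released at synapses is taken up mainly by the astrocyte carriers encoded by Slc1a2 and Slc1a3, the latter being the main one of Bergmann glia, the radial astrocytes of the cerebellum. Inside the glial cell, glutamine synthetase (Glul) joins ammonia to glutamate, and the carrier encoded by Slc38a3 lets the glutamine out again for neurons. Slc6a11 encodes a GABA carrier of astrocytes, Slc4a4 an electrogenic sodium bicarbonate cotransporter that sets glial pH, Slc7a10 an exchanger of small neutral amino acids such as glycine and D-serine, and Slc7a11 the cystine-glutamate exchanger that feeds glutathione synthesis. The last 2 proteins are light chains that reach the membrane with a heavy chain, encoded for Slc7a11 and Slc7a10 by Slc3a2.

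All 8 genes had their highest group mean in GFD-Smo tumours, but Slc1a2 hardly varied among the groups, and single Ptch tumours reached the GFD-Smo level of Slc7a11. The group means of Slc4a4 spanned 2.91 log2 units from GFD-Ptch to GFD-Smo, a wider span than in 99.8% of all genes. The span was 2.2 for Slc1a3, 2.1 for Slc6a11, 1.9 for Slc7a10, 1.6 for Slc38a3, 1.15 for Slc7a11 and 1 for Glul, each wider than in at least 95.3% of genes, and 0.12 for Slc1a2, wider than in 15.5% of genes. The median gene spanned 0.25. In 6 of the 8 genes (all but Slc1a2 and Slc7a11) every GFD-Smo array lay above all 14 other arrays, as 2.97% of all genes did, though for Glul the gap was only that between 12.32 and 12.31. At the other end, GFD-Ptch had the lowest mean for 7 genes and NG-Smo for Slc1a2.

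**Figure D1:**
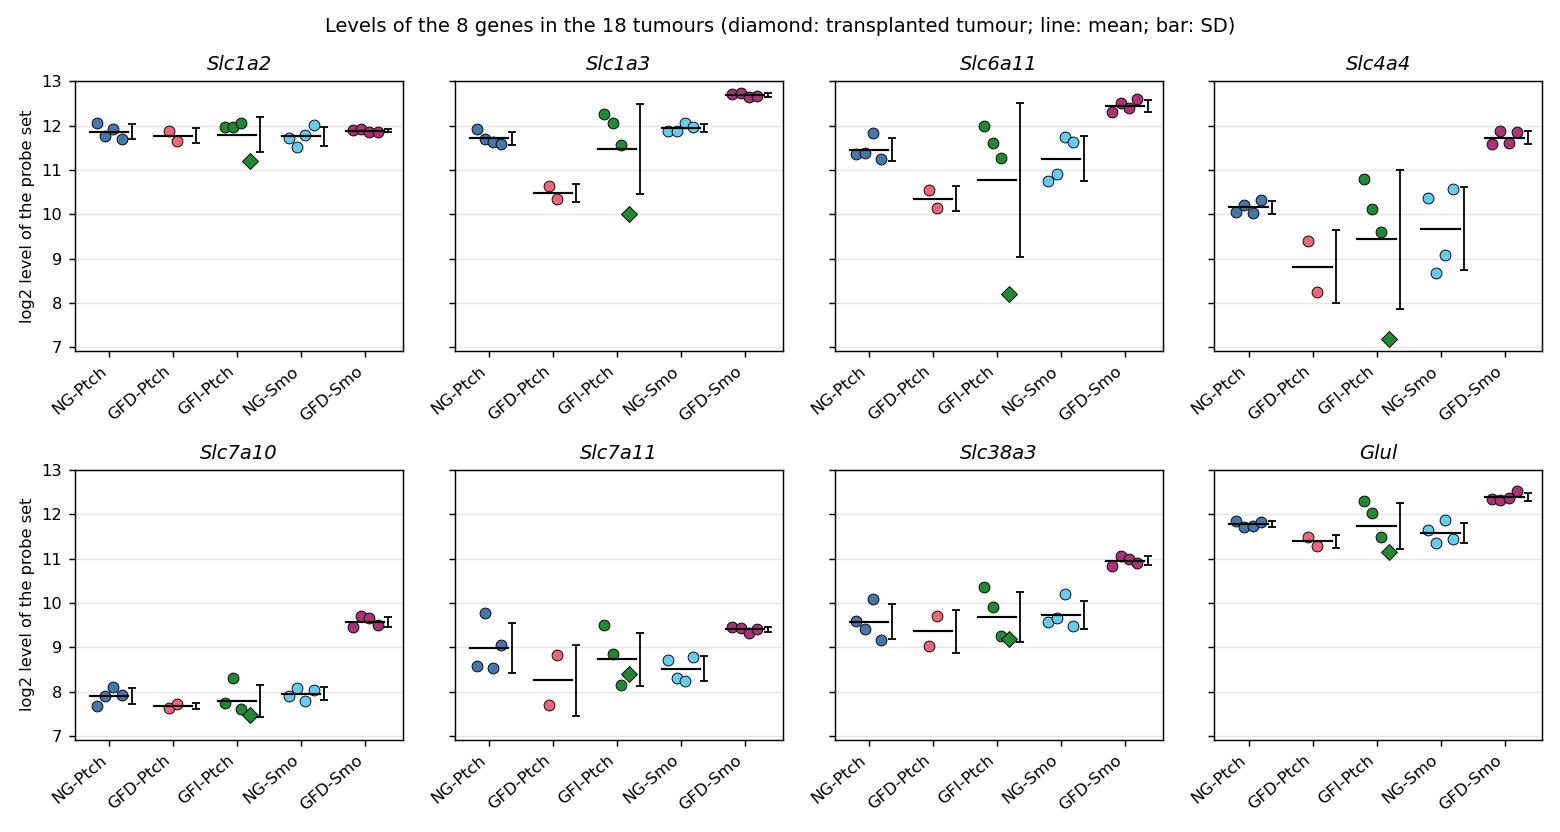
Log2 level (y axis, 1 scale for all panels, though levels of different probe sets cannot be compared) of each gene in each of the 18 tumours by group (x axis), with 1 point per tumour, a line at the group mean and a bar of 1 SD. The 4 GFD-Smo points sit tightly together and above the other groups in every panel but those of Slc1a2 and Slc7a11, and the diamond of the transplanted tumour is the lowest GFI-Ptch point in 7 panels, all but that of Slc7a11.

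The promoters show how unlike these genes are at their start sites. RefSeq windows on build GRCm38.p6 were found for 7 of the 8 genes, Slc38a3 being the one without. The 250 bases before the start are printed for 4 genes: Slc7a10 and Slc1a2, the most and the least changed between the Smo subtypes relative to their error, Slc1a3 as the close relative of Slc1a2, and Slc7a11, whose promoter is known for its stress response elements. They read from chr7:35186135-35186384 (plus strand, Slc7a10), chr2:102706188-102706437 (plus strand, Slc1a2), chr15:8710808-8711057 (minus strand, Slc1a3) and chr3:50443614-50443863 (minus strand, Slc7a11), each 5′ to 3′ along the gene. Capitals mark CpG pairs in the first 3 and the matches to TGATGNAA in Slc7a11.
Slc7a10: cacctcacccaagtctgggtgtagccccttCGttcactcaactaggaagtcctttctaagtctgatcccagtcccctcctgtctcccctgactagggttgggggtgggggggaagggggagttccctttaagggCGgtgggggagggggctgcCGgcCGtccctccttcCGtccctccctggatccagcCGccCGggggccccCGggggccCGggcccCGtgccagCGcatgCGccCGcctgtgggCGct
Slc1a2: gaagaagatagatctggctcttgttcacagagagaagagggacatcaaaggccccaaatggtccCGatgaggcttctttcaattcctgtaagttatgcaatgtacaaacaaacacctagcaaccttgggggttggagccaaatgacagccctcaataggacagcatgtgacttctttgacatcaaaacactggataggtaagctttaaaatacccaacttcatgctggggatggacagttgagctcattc
Slc1a3: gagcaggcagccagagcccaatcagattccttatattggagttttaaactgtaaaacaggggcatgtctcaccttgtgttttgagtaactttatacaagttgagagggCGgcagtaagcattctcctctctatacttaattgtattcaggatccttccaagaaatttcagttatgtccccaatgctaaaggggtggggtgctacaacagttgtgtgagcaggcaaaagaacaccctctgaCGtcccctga
Slc7a11: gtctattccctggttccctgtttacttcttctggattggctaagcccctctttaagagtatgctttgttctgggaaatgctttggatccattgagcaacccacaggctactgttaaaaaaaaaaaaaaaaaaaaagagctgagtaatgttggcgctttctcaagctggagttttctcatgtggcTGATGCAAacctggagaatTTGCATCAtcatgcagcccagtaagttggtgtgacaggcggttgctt
The Slc7a10 stretch holds 14 CpG pairs, most of them in the part nearest the start, while Slc1a3 holds 2 and Slc1a2 1. Over the full windows of 300 bases, GC content was 70.7% for Slc7a10, 45.7% for Slc1a2 and 45.3% for Slc1a3, against a median of 52.7% over 32851 windows. TGATGNAA, the composite element bound by Atf4 and C/EBP factors, was searched on both strands and occurred in 3.97% of all windows. Among the 8 windows of the members it occurred in that of Slc7a11 alone, where the pair of matches faces in opposite directions at 66 and 47 bases before the start. TGACNNNGC, the antioxidant response element bound by Nrf2, occurred in 12.4% of all windows and among the members in 1, that of Slc6a11. The GLI site GACCACCCA, the NFI palindrome and the SOX site ACAATGG occurred in none of the members' windows and in 0.253%, 0.0365% and 3.66% of all windows. These are letter matches only.

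The first comparison set the Smo subtypes against each other, GFD-Smo against NG-Smo. Changes were tested with limma on all 19938 genes, and a gene was called where its Benjamini-Hochberg adjusted p was under 0.05. Slc7a10, Slc38a3 and Glul rose in GFD-Smo, so that 3 of the 8 genes were called higher, where 2.81% of all genes were. The arrays of both groups did not overlap for 7 of the 8, all higher in GFD-Smo, against 5.99% of all genes. The median change of the 8 was 1.04 log2 units and that of all genes -0.01.

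Slc7a10 separated GFD-Smo from every other group. Its level was 9.45, 9.7, 9.65 and 9.51 in the 4 GFD-Smo tumours and 7.9, 8.09, 7.78 and 8.04 in NG-Smo. It was 7.67, 7.9, 8.11 and 7.92 in NG-Ptch, 7.63 and 7.73 in GFD-Ptch, and 7.74, 8.3, 7.61 and 7.47 in GFI-Ptch. Outside GFD-Smo this exchanger thus stayed near the median of the arrays in all 14 tumours, with 0.82 log2 units between the lowest and the highest. It rose 3.08-fold over NG-Smo, by 1.62 ± 0.14 (SE) log2 units (limma adjusted p = 1.23e-05, n = 4 and 4), and this call held when any 1 array was left out and in each of the 11 other settings tried.

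Slc38a3, the glutamine exporter, was at 10.84, 11.07, 11 and 10.91 in GFD-Smo and at 9.57, 9.65, 10.2 and 9.49 in NG-Smo. All GFD-Smo values lay above all NG-Smo values, and the rise was 1.23 ± 0.26 (SE) log2 units or 2.34-fold (limma adjusted p = 0.00996). The Ptch tumours looked like NG-Smo, at 9.6, 9.42, 10.1 and 9.17 in NG-Ptch, 9.02 and 9.7 in GFD-Ptch, and 10.37, 9.91, 9.25 and 9.19 in GFI-Ptch. The arrays of these 4 groups overlapped in every pair.

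Glul, which makes the glutamine that Slc38a3 exports, was at 12.34, 12.32, 12.37 and 12.53 in GFD-Smo and at 11.64, 11.35, 11.88 and 11.45 in NG-Smo. The groups did not overlap, and the rise was 0.81 ± 0.19 (SE) log2 units or 1.75-fold (limma adjusted p = 0.0179). Without GFD-Smo replicate 4 the adjusted p was 0.0527. NG-Ptch was steady at 11.84, 11.72, 11.73 and 11.82, GFD-Ptch lower at 11.49 and 11.29, and GFI-Ptch widely spread at 12.31, 12.02, 11.48 and 11.15. The first GFI-Ptch tumour thus almost reached the lowest GFD-Smo tumour. A second probe set of Glul gave group means of 12.1 in GFD-Smo, 11.28 in NG-Smo, 11.52 in NG-Ptch, 11.48 in GFI-Ptch and 10.98 in GFD-Ptch, with the same groups highest and lowest.

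Slc4a4, the bicarbonate cotransporter, had the largest change of the 8 but missed the threshold. It was at 11.59, 11.87, 11.61 and 11.85 in GFD-Smo and at 10.37, 8.68, 9.07 and 10.57 in NG-Smo. The GFD-Smo tumours were all higher, while the NG-Smo tumours spanned 1.89 log2 units among themselves. The difference was 2.06 ± 0.59 (SE) log2 units or 4.16-fold (limma adjusted p = 0.0577). Without the transplanted tumour the same difference had an adjusted p of 0.00348. It was also called without GFI-Ptch replicate 1 (adjusted p = 0.0369) and without NG-Smo replicate 4 (2.36 log2 units, adjusted p = 0.0441).

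Slc1a3, the glutamate carrier of Bergmann glia, was at 12.71, 12.73, 12.64 and 12.66 in GFD-Smo and at 11.89, 11.88, 12.07 and 11.97 in NG-Smo. Both groups were tight and did not overlap, 0.73 ± 0.32 (SE) log2 units apart, and the limma adjusted p was 0.27, with the error taken from all 5 groups. Slc6a11, the GABA carrier, was at 12.3, 12.5, 12.39 and 12.6 in GFD-Smo and at 10.74, 10.9, 11.74 and 11.63 in NG-Smo. These did not overlap either, and the difference of 1.19 ± 0.57 (SE) log2 units had an adjusted p of 0.33. The transplanted tumour was at 10.01 for Slc1a3 and 8.21 for Slc6a11, far below the rest of its group. Without it both genes were called, with adjusted p of 0.00156 and 0.0034, and 6 of the 8 genes were called higher in GFD-Smo, where 4.13% of all genes then were.

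Slc7a11, the cystine-glutamate exchanger, was at 9.46, 9.43, 9.32 and 9.41 in GFD-Smo and at 8.72, 8.3, 8.25 and 8.79 in NG-Smo, again without overlap. The difference was 0.89 ± 0.31 (SE) log2 units (limma adjusted p = 0.128). It reached comparable levels in 2 Ptch tumours, with 9.77 in NG-Ptch replicate 2 and 9.51 in GFI-Ptch replicate 1. Its other values were 8.58, 8.54 and 9.05 in NG-Ptch, 7.69 and 8.82 in GFD-Ptch, and 8.85, 8.16 and 8.4 in GFI-Ptch.

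Slc1a2, the carrier that takes up most of the brain's glutamate, overlapped in all groups. It was at 11.9, 11.92, 11.85 and 11.86 in GFD-Smo, 11.73, 11.51, 11.78 and 12.02 in NG-Smo, 12.07, 11.76, 11.92 and 11.7 in NG-Ptch, 11.89 and 11.66 in GFD-Ptch, and 11.97, 11.97, 12.05 and 11.21 in GFI-Ptch. Only the last value, from the transplanted tumour, stood apart. Between the Smo subtypes it differed by 0.12 log2 units, with a 95% interval from -0.21 to 0.45 (limma adjusted p = 0.867). The upper bound lay below the estimate for each of the other 7.

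Side by side, the change from NG-Smo to GFD-Smo exceeded that of Slc1a2 by 0.61 log2 units for Slc1a3, 0.69 for Glul, 0.77 for Slc7a11, 1.07 for Slc6a11, 1.11 for Slc38a3, 1.5 for Slc7a10 and 1.94 for Slc4a4. These are given without a test, since Slc1a2 was taken as the reference with its level known. From NG-Ptch to GFD-Ptch the same differences were -1.25 for Slc4a4, -1.15 for Slc1a3, -1.03 for Slc6a11, -0.65 for Slc7a11, -0.3 for Glul, -0.14 for Slc7a10 and -0.13 for Slc38a3.

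The astrocyte markers moved with these genes. The mean log2 level of 14 astrocyte genes, none of them a member, was 10.64 to 10.7 in GFD-Smo against 9.4 to 9.62 in NG-Smo, all 14 were higher, and 8 of them were called higher with a median change of 1.08. The largest changes among the called genes were those of Gja1 (2.32), a gap junction protein, Gjb6 (2.08), its partner in astrocytes, the water channel Aqp4 (1.89) and the folate enzyme Aldh1l1 (1.52). Bulk tumour RNA does not show which cells, tumour cells or others, held these transcripts. More of such cells and more RNA per cell cannot be told apart either. The part of astrocyte content in the members' changes was not tested. Granule progenitor markers had a median change of 0 with 0 of 12 called by limma and 6 at an unadjusted p under 0.05, where 15.9% of all genes were. Of 12 microglia and macrophage markers 4 were called lower in GFD-Smo (2.49% of all genes were), among them Lyz2, Ptprc and Ctss, while 3 of the 12 went up. The mean of the 12 was 9.88 in NG-Smo, against 9.4 in GFD-Smo, 9.39 in NG-Ptch, 9.38 in GFI-Ptch and 8.93 in GFD-Ptch. From NG-Ptch to NG-Smo all 12 were higher and 3 were called (0.607% of all genes were called higher). Of 8 fibroblast and pericyte markers 3 were called higher in GFD-Smo than in NG-Smo.

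**Figure D2:**
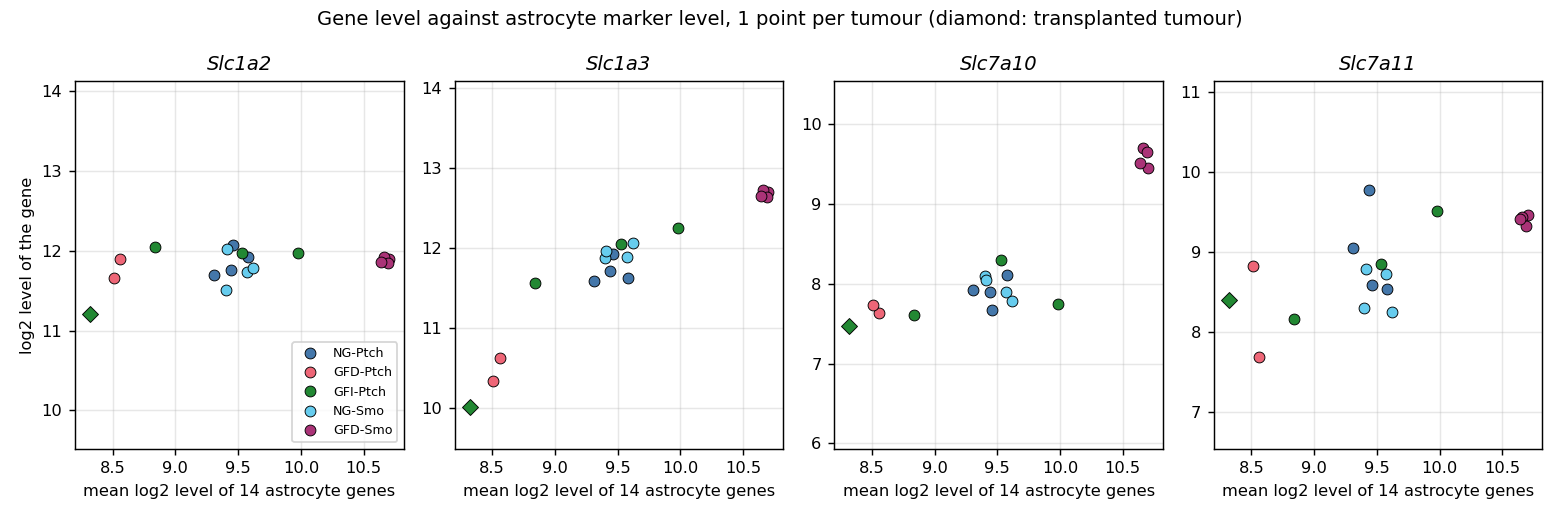
Log2 level of 4 of the genes (y axis, each panel spanning the same number of log2 units) against the mean log2 level of 14 astrocyte markers (x axis), 1 point per tumour coloured by group, with the transplanted tumour as a diamond. Slc1a3 climbs with the markers from GFD-Ptch to GFD-Smo, Slc7a10 stays between 7.47 and 8.3 until the GFD-Smo tumours, and Slc1a2 is level apart from the transplanted tumour at 11.21.

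The members did not all track the astrocyte markers in the same way. GFI-Ptch replicate 1 had the highest astrocyte mean outside GFD-Smo, 9.98, and the highest levels there of Slc1a3 (12.26), Slc6a11 (12), Slc4a4 (10.8), Slc38a3 (10.37) and Glul (12.31). Its Slc7a10 level was 7.74, close to the 7.63 and 7.73 of the GFD-Ptch tumours. In the 2 latter tumours, where the astrocyte mean was 8.56 and 8.51, Slc1a2 was still at 11.89 and 11.66.

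Genes with similar profiles differed from member to member. Over the 18 arrays, which share groups and so are not independent points, the closest profiles to Slc1a3 by Pearson's r were those of Gria1 (0.976), a glutamate receptor subunit, Jam2 (0.975) and Timp4 (0.973), and those to Slc6a11 were Atp1b2 (0.955), Luzp2 (0.948) and Gpr37l1 (0.94). Slc4a4 was closest to Paqr8 (0.957), Gria1 (0.941) and Mt3 (0.925), Slc38a3 to Baalc (0.954), S1pr1 (0.941) and Tspan15 (0.93), and Glul to Aldh6a1 (0.951), Ccdc190 (0.934) and Ndrg2 (0.93). For Slc7a10 they were Pamr1 (0.976), Igf2bp1 (0.964) and Clic6 (0.961), of which the first 2 fell to 0.604 and 0.586 once group means were removed. Slc1a2 was closest to Ntrk3 (0.92), a neurotrophin receptor, Nlgn1 (0.898), a synaptic adhesion protein, and Ctnnd2 (0.869), and these stayed at 0.825, 0.802 and 0.739 without the transplanted tumour. Slc7a11 had no close profile, with Zfp641 (0.793), Kcnrg (0.789) and Txnip (0.781) nearest.

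The second comparison set GFD-Smo against GFD-Ptch, tumours with 1 subtype name in both models. Slc1a3, Slc4a4, Slc7a10, Slc38a3 and Glul rose, 5 of the 8 genes, where 8.5% of all genes were called higher. Slc4a4 was 2.91 ± 0.73 (SE) log2 units or 7.51-fold higher in GFD-Smo (limma adjusted p = 0.0146, n = 4 and 2), Slc1a3 2.2 ± 0.4 (adjusted p = 0.00185), Slc7a10 1.9 ± 0.17 (adjusted p = 1.3e-05), Slc38a3 1.6 ± 0.31 (adjusted p = 0.00328) and Glul 1 ± 0.23 (adjusted p = 0.0086). Slc6a11 at 2.1 ± 0.7 (adjusted p = 0.0543) and Slc7a11 at 1.15 ± 0.38 (adjusted p = 0.0514) did not pass, and Slc1a2 differed by 0.11 with a 95% interval from -0.3 to 0.51. For 7 genes the arrays did not overlap, which with 2 arrays on one side was true of 23.4% of all genes.

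Leaving out 1 of the 2 GFD-Ptch arrays ended 3 of these calls, in a fit where the lone array is assumed to vary like the other groups. Without GFD-Ptch replicate 2, Slc4a4 was 2.33 log2 units higher (limma adjusted p = 0.2) and Glul 0.9 (0.113), and without GFD-Ptch replicate 1 Slc38a3 was 1.26 higher (0.0608). The Slc7a11 difference was 0.58 without GFD-Ptch replicate 1 and 1.72 without replicate 2. Slc6a11 was called without the transplanted tumour (adjusted p = 0.000118) or without GFI-Ptch replicate 1 (0.0418). Slc7a11 was called without NG-Ptch replicate 2 (0.0346), GFD-Ptch replicate 2 (0.0397), GFI-Ptch replicate 1 (0.0319), 3 (0.0453) or 4 (0.0434), or NG-Smo replicate 4 (0.048). Adding the gender label to the fit gave an adjusted p of 0.0659 for Slc4a4 and 0.056 for Glul, and took Slc6a11 from 2.1 to 1.29 log2 units. Both Slc6a11 and Slc7a11 were called, 7 genes in all, with median centring, the filter on dim genes, only the groups compared, array weights, or the transplanted tumour and NG-Smo replicate 4 both left out (chosen after seeing the data). Astrocyte markers moved here too, with 12 of 14 called higher and a median change of 2.39, as did oligodendrocyte progenitor markers (4 of 8 called higher, median 1.11) and microglia and macrophage markers (5 of 12 called higher, median 0.43), and their part in the result was not tested.

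The third comparison, GFD-Ptch against NG-Ptch, found the members low in GFD-Ptch without a call. Slc1a3 was at 10.63 and 10.34 in GFD-Ptch and at 11.93, 11.71, 11.63 and 11.59 in NG-Ptch. Slc6a11 was at 10.55 and 10.15 against 11.37, 11.38, 11.84 and 11.25. Slc4a4 was at 9.4 and 8.24 against 10.05, 10.22, 10.03 and 10.33. For these 3 genes and Glul both GFD-Ptch tumours lay below all 4 NG-Ptch tumours, as was true of 14% of all genes. The differences were -1.23 ± 0.4 (SE) log2 units for Slc1a3 (limma adjusted p = 0.194), -1.11 ± 0.7 for Slc6a11 (0.406), -1.34 ± 0.73 for Slc4a4 (0.346) and -0.39 ± 0.23 for Glul (0.379). With the gender label in the fit they were -0.75, 0, -0.91 and -0.01. These were the smallest in size over the 11 other settings, where the largest were -1.47, -1.36, -1.52 and -0.46. Of the 4 NG-Ptch tumours 3 had no female or male label, and 3 of 13 labels did not match the Y-linked genes. Slc4a4 moved to -1.92 without GFD-Ptch replicate 1 and to -0.76 without replicate 2, and Slc7a11, at -0.73, to -0.16 and -1.3. With limma 0 of the 8 were called and 1 had an unadjusted p under 0.05 (Slc1a3), against 0.01% and 16.9% of all genes.

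Without the transplanted tumour Slc1a3 fell in GFD-Ptch with an adjusted p of 0.00386, while 0.411% of all genes were called lower. For Slc7a10 the difference between GFD-Ptch and NG-Ptch was -0.22, for Slc38a3 -0.22 and for Slc1a2 -0.08, and their arrays and those of Slc7a11 overlapped. Of the astrocyte markers 13 of 14 were below 0 here, with a median of -0.9 and a group mean of 8.54 against 9.45. None of the 14 was called by limma, and 8 had an unadjusted p under 0.05. Oligodendrocyte progenitor markers were also below 0 in 8 of 8 (median -0.99, 5 at an unadjusted p under 0.05), and microglia and macrophage markers in 12 of 12 (median -0.43, 5 at an unadjusted p under 0.05). The part of these cell types in the members' values was not tested. The confounding of sex with subtype stated above applies to this comparison.

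**Figure D3:**
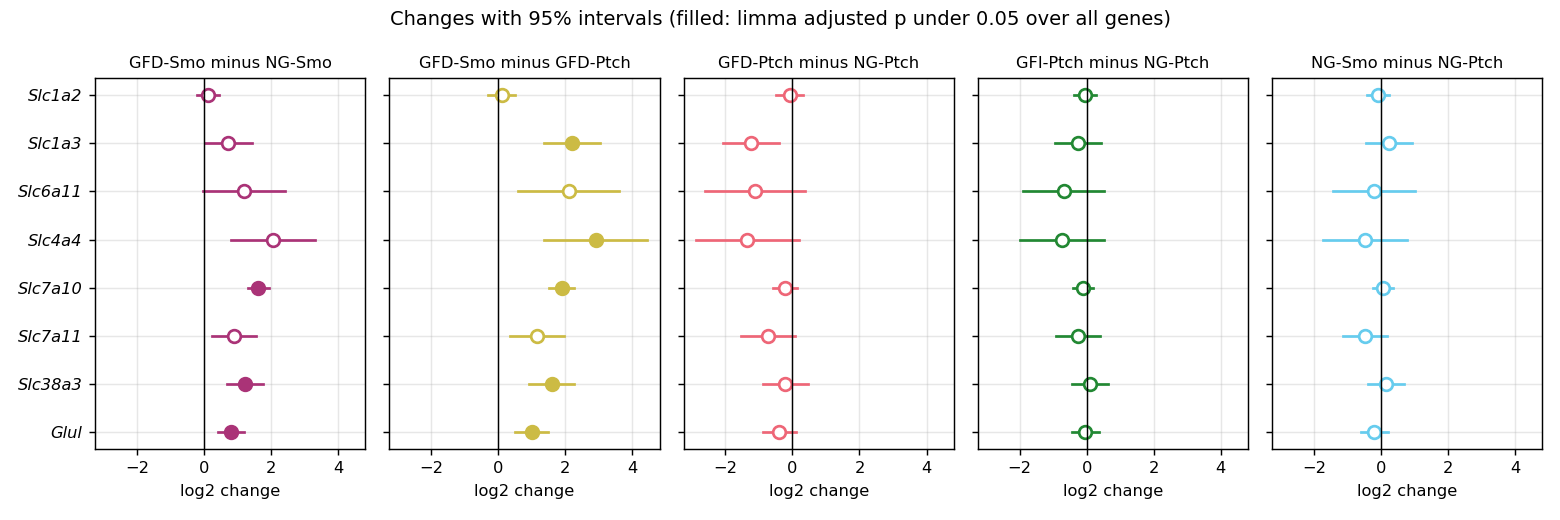
Log2 change of each of the 8 genes (x axis) in 5 comparisons, 1 per panel, with bars for 95% intervals of the limma fit and filled points for genes called at an adjusted p under 0.05 over all genes. Filled points appear only in the panels of GFD-Smo, 3 against NG-Smo and 5 against GFD-Ptch, and the interval of Slc1a2 spans 0 in all 5 panels.

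GFI-Ptch tumours were the most spread of the 5 groups for Slc1a3, Slc6a11 and Slc4a4. Slc1a3 was at 12.26, 12.05, 11.56 and 10.01, Slc6a11 at 12, 11.61, 11.26 and 8.21, and Slc4a4 at 10.8, 10.13, 9.61 and 7.19. The transplanted tumour, the last of each series, was the lowest in all 3. Their SDs of 1.01, 1.73 and 1.57 compare with 0.15, 0.26 and 0.14 in NG-Ptch. Without the transplanted tumour the SDs were 0.36, 0.37 and 0.6 (n = 3), of which the latter 2 were below the 0.5 and 0.94 of NG-Smo. With limma 0 of the 8 genes were called against NG-Ptch, none had an unadjusted p under 0.05, and 0% of all genes were called (8.53% at an unadjusted p under 0.05). The changes ran from -0.73 for Slc4a4 to 0.11 for Slc38a3. Without the transplanted tumour they were 0.24 for Slc1a3, 0.16 for Slc6a11 and 0.02 for Slc4a4, so that the minus signs of these genes rested on that array.

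Against GFD-Ptch, the GFI-Ptch tumours had 0 of the 8 genes called by limma, 1 with an unadjusted p under 0.05 (Slc1a3), against 0.00502% and 9.79% of all genes. The Slc1a3 difference was 0.99 ± 0.4 (SE) log2 units (limma adjusted p = 0.441), and without the transplanted tumour it was 1.47 with an adjusted p of 0.00207, when 0.0953% of all genes were called higher. NG-Smo against NG-Ptch, the same subtype name in both models, had 0 of the 8 called by limma, none at an unadjusted p under 0.05, against 1.04% and 10.6% of all genes. The changes there ran from -0.48 for Slc4a4 to 0.24 for Slc1a3, and the arrays overlapped for all 8 (2.97% of all genes were apart upward and 2.68% downward).

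The difference between the models was then tested itself, as the GFD minus NG change in Smo tumours less that in Ptch tumours. Slc7a10 (1.84 ± 0.22 SE, limma adjusted p = 0.000602), Slc1a3 (1.97 ± 0.51, adjusted p = 0.0448) and Glul (1.2 ± 0.29, adjusted p = 0.0356) were called, 3 of the 8 in the direction of a larger change in Smo, where 2.4% of all genes were. Slc4a4 had the largest estimate, 3.39 ± 0.94 (adjusted p = 0.0568), and Slc38a3 (1.44, adjusted p = 0.0606), Slc7a11 (1.62, adjusted p = 0.0814) and Slc6a11 (2.31, adjusted p = 0.174) pointed the same way. With the gender label in the fit Slc6a11 gave 1.2, and Slc7a11 ranged from 1.05 to 2.19 with arrays left out singly. Slc1a2 gave 0.21 with a 95% interval from -0.32 to 0.73. The Slc7a10 call held without any 1 array. Quantile normalization put Slc1a3 at 1.91 (limma adjusted p = 0.0512), no longer called. With the gender label in the fit neither Slc1a3 nor Glul was called (limma adjusted p = 0.199 and 0.22). The same held for the Y-linked level (0.118 and 0.117) and the replicate block (0.0558 and 0.0688). The call of Slc1a3 was lost when any 1 array of NG-Ptch, GFD-Ptch, NG-Smo or GFD-Smo, or GFI-Ptch replicate 3, was left out (adjusted p from 0.0524 to 0.214). That of Glul was lost without any 1 array of NG-Ptch, GFD-Ptch or GFD-Smo, or without NG-Smo replicate 2 or 4 (0.0504 to 0.183). Without GFI-Ptch replicate 1 Slc4a4 (adjusted p = 0.0394) and Slc38a3 (0.0319) were called as well, the latter also with NG-Smo replicate 3 left out (0.0393). Without the transplanted tumour 6 genes were called, where 3.82% of all genes were called higher. The Smo tumours of this comparison differ in Cre driver and the Ptch tumours in Y-linked RNA, so subtype cannot be told apart from these.

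Partner genes of the members were read from lists of related function. Of 13 other glutamate, glycine and GABA transporters measured, 3 rose from NG-Smo to GFD-Smo and none fell, with a median change of 0.45. They were the glycine carriers Slc6a9, found on astrocytes (1.24, limma adjusted p = 0.00209), and Slc6a5, found on glycinergic neurons (0.6, adjusted p = 0.0416), and the neutral amino acid carrier Slc1a4 (0.45, adjusted p = 0.0349). Slc6a9 also rose over GFD-Ptch (1.17), as did Slc6a13 (1.28), a GABA carrier known from the meninges, and Slc1a4. These were 3 of the 13, where 8.5% of all genes were called higher. Slc1a4 was also called lower in NG-Smo than in NG-Ptch, as 0.436% of all genes were. Of 11 enzymes and carriers of glutamine, glutamate and GABA, 2 rose and none fell between the Smo subtypes: Abat, which breaks down GABA (0.88, adjusted p = 0.000684), and Glud1, glutamate dehydrogenase (0.69, adjusted p = 0.00979). Both rose over GFD-Ptch as well, by 1.52 and 1.11. Gad2 and Aldh5a1 were also called higher there, so that 4 of the 11 rose, where 8.5% of all genes were called higher. Gad2 was dim in GFD-Ptch, with a mean of 6.2, below the lower quartile of every array (6.21 to 6.382). The 2 of the 11 that fell from GFD-Ptch to GFD-Smo were Slc38a1 and Slc38a2, glutamine carriers known from neurons, by 0.22 and 0.24.

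Genes of cystine exchange and of the stress responses known for Slc7a11 were read next. The heavy chain of Slc7a11 and Slc7a10, Slc3a2, differed by -0.01 log2 units from NG-Smo to GFD-Smo (limma adjusted p = 0.983), at mean levels of 12.55 and 12.54. Of 13 genes of cystine and neutral amino acid exchange and glutathione synthesis, 0 were called by limma. At an unadjusted p under 0.05 stood 1 of them, against 15.9% of all genes. The median of the 13 changes was -0.08, and the largest were those of the glutathione reductase Gsr (-0.2) and the glutamate-cysteine ligase subunit Gclc (-0.12). Among 7 other targets of Nrf2, the quinone reductase Nqo1 rose (0.88, adjusted p = 0.000294) and the sulfiredoxin Srxn1 fell (-0.33, adjusted p = 0.0233). Nqo1 was dim in the Ptch groups, with means of 5.77 to 5.88, below the lower quartile of every array (6.21 to 6.382). The list went both ways, with 5 of 7 at an unadjusted p under 0.05, a median of -0.11 and a mean level of 9.02 in GFD-Smo against 8.82 in NG-Smo. Among 9 genes of Atf4 and its targets, Sesn2 fell (-0.74, adjusted p = 0.0228) and none rose, with a median of -0.17.

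Partners of Slc4a4 in acid-base transport included 1 that rose among 11 measured, the membrane-bound carbonic anhydrase Car4 (1.8, limma adjusted p = 0.0098). Against GFD-Ptch, the carbonic anhydrase Car2 (3.6), its inactive relative Car8 (3.11) and the lactate carrier Slc16a1 (1.05) rose, and the lactate carrier Slc16a3 (-0.44) and the exchanger Slc4a8 (-0.43) fell. Of 11 genes of glial potassium, sodium and water transport, 3 rose and 1 fell between the Smo subtypes, with a median of 0.9. These were Aqp4 (1.89), the potassium channels Kcnj10 (1.52) and Kcnj16 (0.99), and the sodium-calcium exchanger Slc8a1 (-0.53). In GFD-Ptch against NG-Ptch no gene of any of these 7 lists was called by limma, where 16.9% of all genes had an unadjusted p under 0.05. At that p stood 5 of 11 potassium, sodium and water genes, 4 of 11 acid-base genes, 3 of 11 glutamine, glutamate and GABA enzymes and carriers, 3 of 13 other transporters, 1 of 7 Nrf2 targets, 1 of 9 Atf4 genes and 0 of 13 cystine and glutathione genes.

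**Figure D4:**
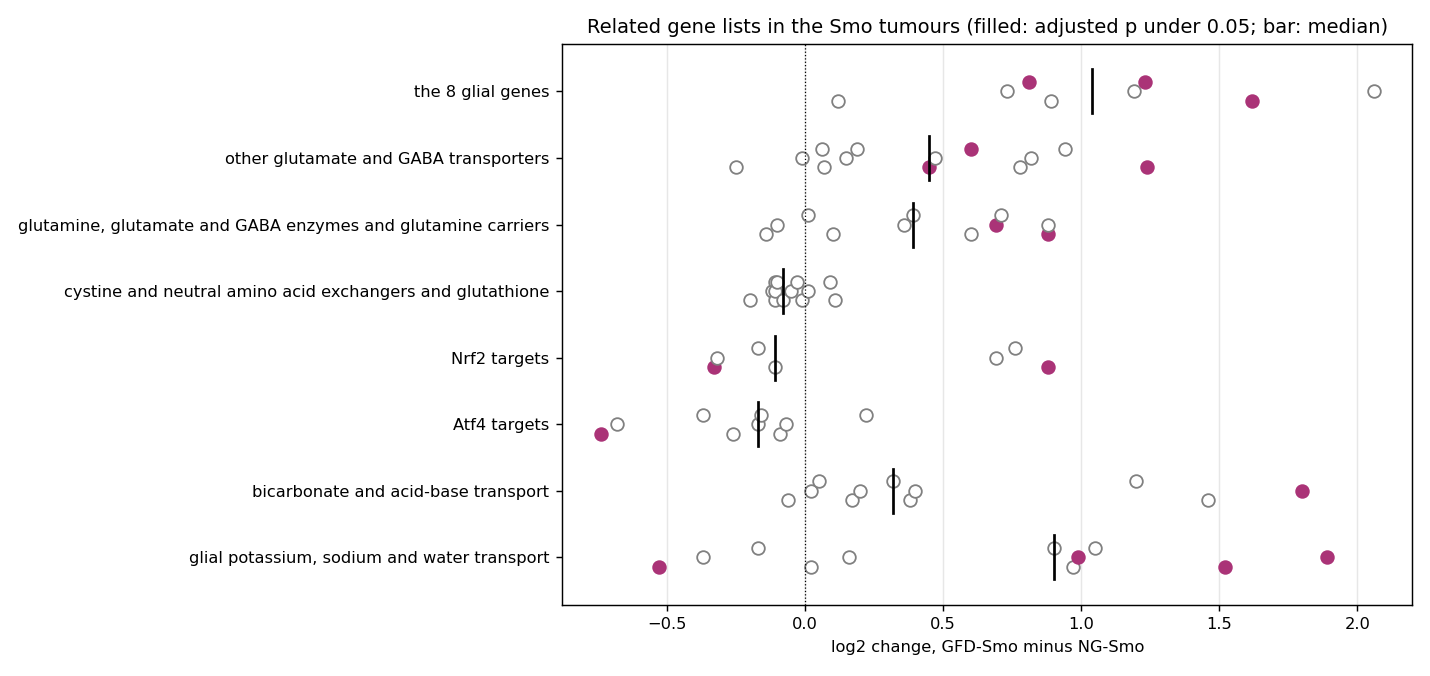
Log2 change from NG-Smo to GFD-Smo (x axis) of the 8 glial genes and of the genes of 7 related lists (rows), 1 point per gene, filled where the limma adjusted p was under 0.05, with a black bar at the median of each list. The members have the highest median, 1.04, the potassium and water list follows at 0.9, and the glutathione, Nrf2 and Atf4 lists have medians of -0.08, -0.11 and -0.17. Members and lists were chosen with earlier results of these data known, so the order of the medians is a description only.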

How the data were processed

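Total RNA from 18 tumours was extracted with Trizol and hybridised to Affymetrix ST 1.0 arrays, per the labels' protocols. The deposited values are log2 levels of 35556 probe sets, from the values themselves, and Partek 6.6 is named in the submitters' processing notes. Background correction and normalization are not given in the sources used here, and no detection calls were used. Probe sets were named from the platform annotation: 21789 had 1 symbol, 1621 several and 12146 were not listed, which left 19938 genes, each read from its probe set with the highest mean.

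limma 3.58.1 (R 4.3.3) fitted 5 group means over all 18 arrays with 7 contrasts, and p-values were adjusted (Benjamini-Hochberg) over 19938 genes. The number of arrays limits the precision. Named genes are the 8 members, up to 4 called genes of each list with the largest change (with none called, up to 2 as values), and the 3 closest profiles of each member. Members and lists were chosen with earlier results of these data known. Promoters came from RefSeq. Alternatives covered centring, quantile normalization, a filter on dim genes, the probe set rule, array weights, trend and robust settings, gender, Y-linked level, the groups fitted, the replicate block and each array left out.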

Additional observations from a re-analysis of the deposited data

Results flagged for a closer look

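Slc1a2 in GFI-Ptch replicate 4, the transplanted tumour, was at 11.21 while the other 3 tumours of its group lay between 11.97 and 12.05. The gap made up 0.904 of the range of the group, above the critical value of 0.829 for 4 samples. It was the only such array among 32 tests, of which chance flags about 1 in 20. The change from NG to GFD tumours differed between the Smo and the Ptch models by 1.97 log2 units for Slc1a3, 1.84 for Slc7a10 and 1.2 for Glul, by the limma interaction contrast given above. For Slc1a3 and Glul that call was lost when most single arrays were left out. It was also lost for both genes with the gender label, the Y-linked level or the replicate block in the fit.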

How the results depend on the processing

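Each of the 56 member changes (8 genes, 7 contrasts) was recomputed in 29 settings, 18 of them leaving out 1 array. Of the 1624 values, 1480 kept their direction and side of the threshold, 63 gained a call, 40 lost one and 41 changed sign, none of the latter while called. The count of members called by limma moved most for the difference of models (3): 5 with median centring or with the filter on dim genes, 7 with only the groups compared or with array weights, 5 without both outlying arrays (the transplanted tumour and NG-Smo replicate 4, an alternative chosen after seeing the data), 1 with the gender label or the Y-linked level as covariate, and 1 with the replicate block, and 1 to 6 with arrays left out singly. For GFD-Smo against NG-Smo (3) it was 7 with only the groups compared, 6 with array weights, 6 without both outlying arrays and 2 to 6 with arrays left out singly. For GFD-Smo against GFD-Ptch (5) it was 3 with the gender label, 7 with median centring, the filter on dim genes, only the groups compared, array weights or both outlying arrays left out, and 4 to 7 with arrays left out singly. For GFD-Ptch against NG-Ptch (0) it was 2 with only the groups compared, 1 with array weights, 2 without both outlying arrays, and 0 to 1 with arrays left out singly. For GFI-Ptch against GFD-Ptch (0) it was 1 with array weights, 1 without both outlying arrays and 0 to 1 with arrays left out singly. In the difference of models, quantile normalization ended the call of Slc1a3 (1.91 log2 units, limma adjusted p = 0.0512). The cause of these shifts was not tested.

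Signs changed as follows. In GFI-Ptch against NG-Ptch, array weights gave 0.14 for Glul, 0.05 for Slc1a2, 0.13 for Slc1a3, 0.05 for Slc6a11 and 0.17 for Slc7a10. Leaving out both outlying arrays gave 0.16, 0.14, 0.24 and 0.16 for the first 4 and 0.02 for Slc4a4, the gender label gave 0.19 for Glul, and the replicate block -0.04 for Slc38a3. With the gender label, Slc1a2 in GFD-Ptch against NG-Ptch and in GFD-Smo against GFD-Ptch came to 0 (adjusted p = 0.997), Slc1a2 and Slc6a11 in GFI-Ptch against GFD-Ptch to -0.07 and -0.1, Slc38a3 in GFD-Ptch against NG-Ptch to 0.25 and Slc6a11 in NG-Smo against NG-Ptch to 0.1. Quantile normalization put Slc1a2 in GFI-Ptch against GFD-Ptch at 0. With single arrays left out, GFI-Ptch against NG-Ptch ranged from -0.23 to 0.16 for Glul, -0.15 to 0.14 for Slc1a2, -0.51 to 0.24 for Slc1a3, -1.1 to 0.16 for Slc6a11, -1.18 to 0.02 for Slc4a4, -0.52 to 0 for Slc7a11 and -0.12 to 0.28 for Slc38a3. GFI-Ptch against GFD-Ptch ranged from -0.1 to 0.22 for Slc1a2, -0.02 to 0.66 for Slc38a3, -0.07 to 0.2 for Slc7a10 and -0.09 to 1.04 for Slc7a11. GFD-Ptch against NG-Ptch ranged from -0.2 to 0.03 for Slc1a2 and -0.56 to 0.12 for Slc38a3, GFD-Smo against GFD-Ptch from -0.01 to 0.22 for Slc1a2, and NG-Smo against NG-Ptch from -0.02 to 0.12 for Slc7a10 and 0 to 0.33 for Slc38a3.

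Over all genes, calls ranged over the settings from 0 to 689 for GFD-Ptch against NG-Ptch (2 as reported), 0 to 180 for GFI-Ptch against NG-Ptch (0), 0 to 64 for GFI-Ptch against GFD-Ptch (1), 643 to 1740 for GFD-Smo against NG-Smo (1058), 34 to 1169 for NG-Smo against NG-Ptch (208), 997 to 6809 for GFD-Smo against GFD-Ptch (3110) and 159 to 1484 for the difference of models (759). Arrays with the same replicate number in 2 groups did not deviate together over all genes. Their correlations ran from -0.31 to 0.187 over 29 pairs (median -0.0299), against -0.379 to 0.304 over 99 other pairs (median 0.0203). These correlations gave no sign that the numbers pair the samples. They cannot exclude a pairing or batch that touched only some genes. GFD-Ptch, with 2 arrays, limits every comparison it enters.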

Other observations

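The glial cell type markers beside the 8 genes also moved in lists not described above. Of 11 markers of Bergmann glia and radial glia, 1 rose from NG-Smo to GFD-Smo, Hopx (1.23, limma adjusted p = 0.000287), with a median change of 0.84 for the list, and 5 rose from GFD-Ptch to GFD-Smo. Markers of oligodendrocyte progenitors had a median change of -0.05 between the Smo subtypes, with 0 of 8 called by limma or at an unadjusted p under 0.05, while their direction was that of the members from GFD-Ptch to GFD-Smo and from NG-Ptch to GFD-Ptch. The mean of these 8 oligodendrocyte progenitor markers was 10.03 ± 0.09 (SD, n = 4) in GFD-Smo, 10 ± 0.54 (n = 4) in NG-Smo and 10.01 ± 0.2 (n = 4) in NG-Ptch, against 8.92 ± 0.11 (n = 2) in GFD-Ptch and 8.97 ± 0.81 (n = 4) in GFI-Ptch. The mean of the 8 members themselves was 11.38 ± 0.06 in GFD-Smo, 10.43 ± 0.07 in NG-Ptch, 10.3 ± 0.19 in NG-Smo, 10.17 ± 0.78 in GFI-Ptch and 9.76 ± 0.03 in GFD-Ptch.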
